A study of Mus musculus with 25 samples.

Results

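The genes described here are the coactivators of the PGC-1 family and their partner nuclear receptors in the *soleus*, a slow-twitch calf muscle, of mice that had run on a treadmill or rested. They are 10 of the 52636 genes counted: *Ppargc1a*, which encodes PGC-1α, the 4 single-exon genes annotated inside it (*Gm43605*, *Gm42613*, *Gm42615* and *Gm42614*), *Ppargc1b*, *Pprc1*, *Perm1*, *Esrra* and *Esrrg*. They were chosen by name, as a family and because of what *Ppargc1a* and the genes inside it did after exercise in these same libraries, so their exercise values are given as a description with no test, while genotype, sex and the relations between mice were tested. All 10 passed the filter on low counts that 16340 genes passed; for the 4 genes inside *Ppargc1a* the counts of the exercised mice carried them through it.

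RNA-seq counts per gene were available for 25 C57BL/6 mice of 12 weeks of age and both sexes. WT rested (n = 5) and WT exercised (n = 7) mice carried a Dnmt3a flox/flox allele without Cre, and mD3AKO rested (n = 7) and mD3AKO exercised (n = 6) mice carried the same floxed allele with Cre recombinase under the muscle creatine kinase promoter, active in differentiated skeletal and heart muscle. The Cre is meant to remove exon 19 of *Dnmt3a*, a de novo DNA methyltransferase, from the fibers. Satellite cells and non-muscle cells of the tissue are not targeted by this promoter. Exercised mice ran for 30 min at 16 m/min on a 5% incline and were killed 60 min after the bout; rested mice spent the same time in a sham treadmill arena. Familiarization to a treadmill is described for the mice in general, and the floxed allele is shared by every group. Both a main effect of genotype and an interaction of genotype with exercise can be tested, and mice are named below by the numbers in the sample labels.

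PGC-1 coactivators do not bind DNA themselves. They are recruited by transcription factors, among them the estrogen-related receptors ERRα and ERRγ (*Esrra*, *Esrrg*), nuclear receptors that work without estrogen, and together they raise transcription of genes for mitochondrial respiration and fat oxidation. In muscle, contraction acts through calcium, AMP-activated and cAMP-dependent signaling on the promoter of *Ppargc1a*, and its mRNA is one of the best known early responses to a bout of endurance exercise. *Perm1* encodes a muscle protein that is itself induced by PGC-1 and ERR.

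*Ppargc1a* lies on the reverse strand at chr5:51454250-51567726 (mm10) and spans 113.5 kb, of which 6592 bases are exonic in 14 exon blocks. The 4 genes inside it each have 1 exon, share no exonic base with it, are the only genes annotated within its span, and are of the class of transcribed regions still to be tested by experiment (TEC). *Gm43605* (chr5:51510868-51514293, 3426 bases, same strand as *Ppargc1a*) and *Gm42613* (chr5:51499528-51501458, 1931 bases, opposite strand) lie in the 50.3-kb intron between blocks 3 and 4. *Gm42615* (chr5:51491097-51492916, 1820 bases, same strand) lies in the 4.4-kb intron between blocks 6 and 7, and *Gm42614* (chr5:51482752-51484305, 1554 bases, same strand) in the 15.6-kb intron between blocks 8 and 9. The libraries were of total RNA depleted of ribosomal RNA, which keeps unspliced RNA, so reads from these genes and from unspliced *Ppargc1a* RNA cannot be told apart on the same strand. Whether the counting used the strand was not given in the sources used here, and the same holds for *Gm42613* if it did not. Densities of nested genes on either strand are given further below.

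The sequences at the center of these results are the introns' transcribed stretches and a promoter window at the upstream end of the gene around them. The first 100 bases of each nested gene (GENCODE transcripts, mm10, each 5′ to 3′ on the gene's own strand) are shown in the order in which transcription of *Ppargc1a* meets them, so that a reader can place probes or reads; they are chr5:51514194-51514293, chr5:51499528-51499627, chr5:51492817-51492916 and chr5:51484206-51484305.
Gm43605: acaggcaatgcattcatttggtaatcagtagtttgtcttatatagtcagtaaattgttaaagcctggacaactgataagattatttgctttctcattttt
Gm42613: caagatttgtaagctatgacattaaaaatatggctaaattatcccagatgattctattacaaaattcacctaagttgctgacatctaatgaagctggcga
Gm42615: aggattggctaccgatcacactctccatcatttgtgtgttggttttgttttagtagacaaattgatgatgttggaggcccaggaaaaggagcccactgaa
Gm42614: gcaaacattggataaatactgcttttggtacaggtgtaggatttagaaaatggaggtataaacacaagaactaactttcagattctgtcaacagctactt
Their GC content was 36.3%, 35.5%, 36.7% and 38.7% over the whole genes in that order. Of their 31-base words, 3.27%, 0.0%, 2.18% and 1.57% also occurred in a transcript of another gene.

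RefSeq promoter windows (GRCm38.p6, 250 bases before to 50 after the start) were available for 5 of the 10 genes, in 8 windows. The 250 bases before the start of *Ppargc1a* at its block 1 (chr5:51567726-51567975, reverse strand) are shown. They were chosen because *Ppargc1a* and the 4 genes inside it were all higher after exercise. Block 1 has 97 bases, and block 2 lies 13.8 kb downstream of the start. The bases shown do not include those just before block 2, and counts per gene do not separate transcripts by their start. The capitals mark CGTCA, the core TGACG of the cAMP response element read on the other strand, which begins 49 bases before the start.
Ppargc1a: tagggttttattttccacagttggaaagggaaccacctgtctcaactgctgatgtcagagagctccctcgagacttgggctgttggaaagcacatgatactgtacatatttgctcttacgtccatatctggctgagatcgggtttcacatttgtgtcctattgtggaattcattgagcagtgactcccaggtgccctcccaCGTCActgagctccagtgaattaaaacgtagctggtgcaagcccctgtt
TGACG, searched on both strands, was in 20.8% of 32851 windows, which makes it a common match. For *Perm1* the bases from 250 to 151 before the start (chr4:156215677-156215776, forward strand) are shown because they hold TGACCTT, the ERR core AAGGTCA read on the other strand, 202 bases before the start and in capitals. The start is that of RefSeq, which for *Perm1* lies downstream of the start in the annotation whose coordinates are given for the genes here, so the motif is closer to the latter.
Perm1: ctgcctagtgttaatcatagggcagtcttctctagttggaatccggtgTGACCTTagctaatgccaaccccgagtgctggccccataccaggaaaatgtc
AAGGTCA was in 4.72% of the windows. The longer forms TNAAGGTCA (1.28% of windows) and TGACGTCA (1.79%) were not among the letters of the windows of these genes, and the window of *Esrra* held GCATGCGC, the core of a site for nuclear respiratory factor 1, 34 bases before the start (2.71% of windows). Only these windows were searched, so a form not found in them may still lie outside them, for *Ppargc1a* also further downstream in the gene. These matches are descriptions of the letters and not of bound factors.

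The libraries held 22671457 to 37431801 gene counts (median 32189360). Levels are given as CPM (counts scaled to a fixed library size) on libraries scaled by trimmed mean of M values (TMM), so 1 CPM was about 32.2 counts in a median library. Slow-fiber markers summed to 23210 to 46170 CPM per mouse with none of the 6 at 0. *Dnmt3a* itself was lower in mD3AKO mice: group means were 115 ± 17.6 (WT rested), 117 ± 10.6 (WT exercised), 43.4 ± 6.60 (mD3AKO rested) and 37.9 ± 3.30 CPM (mD3AKO exercised; SD, n = 5, 7, 7 and 6), and its log2 fold change for genotype was -1.52 (SE 0.07, edgeR adjusted p = 1.52e-13). One library stood apart. mD3AKO rested mouse 15, a male, had the fewest counts and a TMM factor of 0.631; genes for ribosomal RNA took 39.6% of its counts, where they took 7.95% to 13.1% elsewhere. On the TMM scale it had the highest resting value of *Ppargc1a*, *Gm42615*, *Ppargc1b*, *Perm1*, *Esrra* and *Esrrg*. The highest CPM of the mD3AKO rested mice without it is given below for each of these.

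Mean *Ppargc1a* after exercise was 2.40 times the resting mean in WT and 1.91 times that in mD3AKO. WT rested mice 20, 11, 1, 14 and 13 had 30.8, 34.2, 34.4, 35.6 and 36.2 CPM (mean 34.2 ± 2.11 SD). WT exercised mice ran from 58.3 through a median of 78.4 to 113 CPM (82.3 ± 17.7, n = 7), so the WT groups did not overlap. mD3AKO rested mice ran from 34.1 through 38.3 to 58.1 CPM (40.2 ± 8.07, n = 7) and mD3AKO exercised mice from 54.2 through 69.1 to 111 CPM (76.7 ± 22.9, n = 6). These groups overlapped through mouse 15 alone, at 58.1 CPM from 831 counts. Without it the mD3AKO rested mice had 37.2 ± 1.83 CPM and at most 38.9, and all 13 exercised mice of both genotypes, instead of 12, were above every rested mouse. The log2 fold change for exercise was 1.10 (SE 0.12) over all mice and 1.16 without mouse 15.

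The level of mouse 15 turned on the scaling. On CPM of the whole library its *Ppargc1a* was 36.7, inside the 32.9 to 41.6 of the other 11 rested mice, while on the TMM scale it was 58.1 against 30.8 to 38.9. With counts of ribosomal RNA genes left out it was 60.7 against 36.1 to 45.8, and the exercised mice were 61.6 to 132. In whole-library CPM the exercised mice were 55.4 to 121. Every exercised mouse was thus above every rested one in whole-library CPM. The same held with ribosomal RNA genes left out, there narrowly (61.6 against 60.7 in mouse 15).

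**Figure D1:**
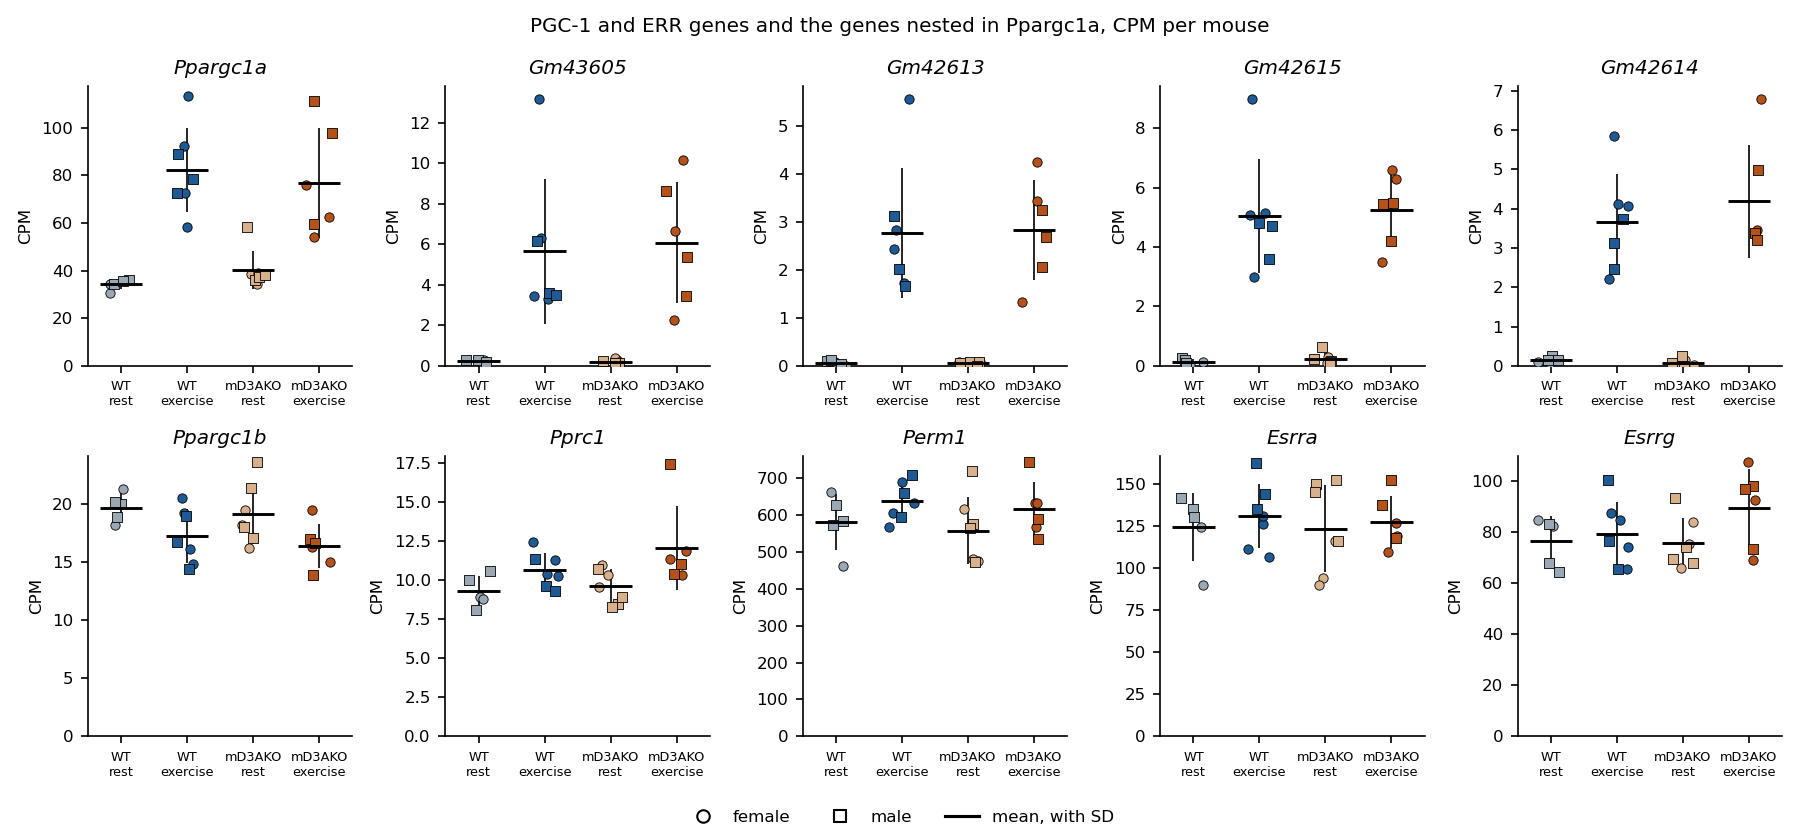
Level of each of the 10 genes in each mouse, in TMM-scaled CPM on the vertical axes, with the 4 groups along the horizontal axes; circles are females, squares are males, and bars are the group mean and SD (n = 5, 7, 7 and 6). The genes nested in *Ppargc1a* sit near 0 in every rested mouse and at 1.34 to 13.2 CPM in the exercised mice, while *Ppargc1b*, *Perm1*, *Esrra* and *Esrrg* overlap widely between rest and exercise.

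The 4 genes nested in *Ppargc1a* showed the largest fold changes for exercise of all 16340 genes tested, ranks 1 to 4, where *Ppargc1a* itself ranked 160 and *Pprc1* 1377. These ranks come from the contrast the genes were chosen on, among genes that passed the filter through their exercised mice, and describe the size of the change only. At rest they were close to absent, with 0 to 14 counts per gene and library. *Gm43605* had 2 to 14 counts at rest and 73 to 438 after exercise. *Gm42613*, on the other strand, had 0 to 4 and 43 to 185. *Gm42615* had 1 to 11 and 96 to 299, and *Gm42614* 0 to 9 and 71 to 204. For each of the 4 every exercised mouse was above every rested mouse, which makes 4 of the 10 genes; over all genes this held for 0.765% (125 genes), and for the same reason nothing is read from that share.

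In WT rested mice *Gm43605* was at 0.179, 0.207, 0.278, 0.283 and 0.300 CPM in mice 1, 13, 14, 11 and 20, and in mD3AKO rested mice it ran from 0.131 through 0.201 to 0.370 CPM. After exercise it ran from 3.30 through 3.61 to 13.2 CPM in WT and from 2.28 through 6.01 to 10.1 CPM in mD3AKO mice. The exercised mice spread widely, with WT mouse 25 highest and mD3AKO mouse 23 lowest. *Gm42613* was at 0.00, 0.0295, 0.0895, 0.0944 and 0.124 CPM in WT rested mice 20, 13, 1, 11 and 14 and at 0.00 to 0.0863 (median 0.0755) in mD3AKO rested mice. It reached 1.67, 2.44 and 5.56 CPM (lowest, median, highest) in WT and 1.34, 2.96 and 4.25 in mD3AKO exercised mice.

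*Gm42615* was at 0.0298, 0.0926, 0.137, 0.207 and 0.252 CPM in WT rested mice 1, 14, 20, 13 and 11, and at 0.0880, 0.179 and 0.629 (lowest, median, highest) in mD3AKO rested mice, of which mouse 15 was the highest with 9 counts. Without mouse 15 the highest of these was 0.290 CPM. After exercise it was at 3.00, 4.81 and 8.98 CPM in WT and 3.49, 5.47 and 6.58 in mD3AKO mice. *Gm42614* was at 0.0597, 0.109, 0.148, 0.154 and 0.252 CPM in WT rested mice 1, 20, 13, 14 and 11, and at 0.00, 0.0656 and 0.259 in mD3AKO rested mice. After exercise it was at 2.22, 3.73 and 5.86 CPM in WT and 3.19, 3.42 and 6.78 in mD3AKO mice. The lowest exercised mouse was thus far above the highest rested one for each gene, also where mouse 15 had the highest resting value.

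Pooled over mice, the 4 genes together had 235 counts at rest and 7278 after exercise. Set over the pooled TMM-scaled library sizes this was a ratio of 29.9 (95% counting interval 26.2 to 34.1). For the genes singly it was 42.8 (29.0 to 65.8) for *Gm42613*, 34.4 (25.6 to 47.3) for *Gm42614*, 28.8 (22.8 to 37.1) for *Gm42615* and 24.8 (20.2 to 30.9) for *Gm43605*. These intervals cover counting error only. The fitted log2 fold changes were 5.35 (SE 0.31), 5.05 (SE 0.29), 4.87 (SE 0.25) and 4.62 (SE 0.31) in that order.

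**Figure D2:**
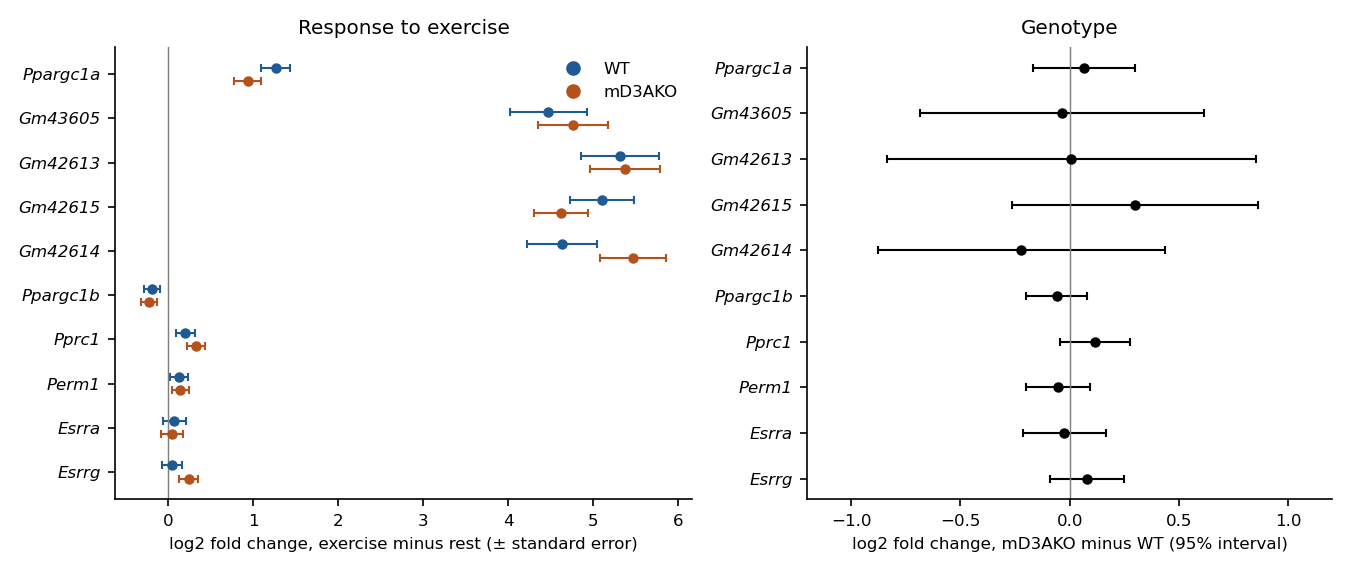
Left, log2 fold change for exercise in WT and in mD3AKO mice with its SE; right, log2 fold change for genotype (mD3AKO over WT) with its 95% interval, for each of the 10 genes. The nested genes lie between 4.48 and 5.47 in both genotypes and *Ppargc1a* at 1.27 and 0.94, and every interval for genotype includes 0.

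Set per kilobase of exon, the nested genes moved from 1.22% ± 0.385 (SD, n = 12; range 0.777 to 1.95%) of the density over *Ppargc1a* exons at rest to 17.0% ± 5.70 (n = 13; 10.8 to 27.7%) after exercise. The ranges did not overlap. After exercise the densities were 2.82 ± 0.858 CPM per kb for *Gm42615*, 2.51 ± 0.834 for *Gm42614*, 1.71 ± 0.930 for *Gm43605* and 1.45 ± 0.603 for *Gm42613* (n = 13), so the 2 genes nearest to the 3′ end of *Ppargc1a* had the higher mean densities, though the ranges over mice overlapped for all 4. The opposite-strand gene *Gm42613* had the lowest density, within the spread of *Gm43605*, which lies in the same intron. Of the nested counts in exercised mice *Gm43605* held 31.6% ± 6.31 (21.5 to 41.6%), *Gm42613* 15.7% ± 1.44 (12.7 to 18.3%), *Gm42615* 29.9% ± 3.35 (23.7 to 34.4%) and *Gm42614* 22.8% ± 4.86 (16.3 to 32.7%), the narrowest range being that of *Gm42613*.

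**Figure D3:**
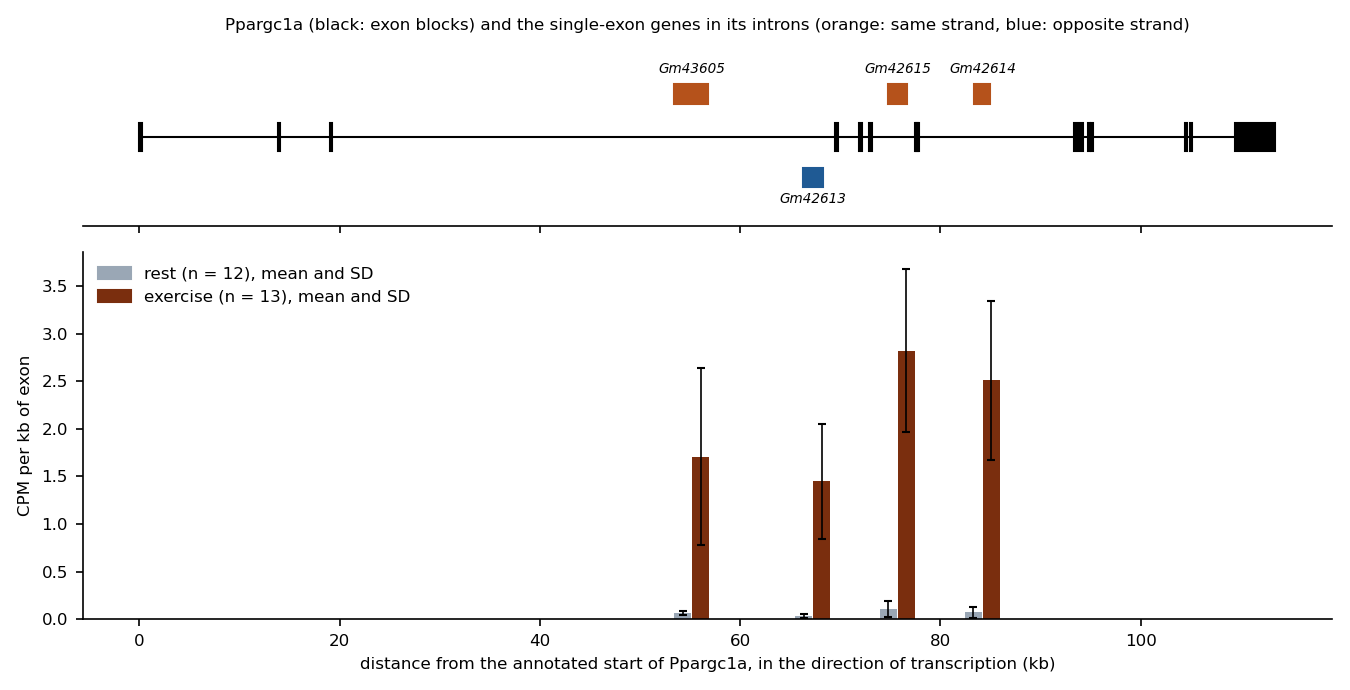
Above, the *Ppargc1a* locus with distance from the start of the gene in kb, its 14 exon blocks, and the nested genes drawn by strand; below, bars from 0 of the mean CPM per kb of exon of each nested gene with SD at rest (n = 12) and after exercise (n = 13). The nested genes are at 0.0323 to 0.11 CPM per kb at rest and 1.45 to 2.82 after exercise; *Ppargc1a* itself, at 5.72 and 12.1, has no bar.

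Among the 13 exercised mice the nested genes varied with one another more closely than with *Ppargc1a*. As a description over the same libraries, Pearson's r of log2 CPM was 0.957 for *Gm43605* and *Gm42613*, which share an intron but not a strand, 0.930 for *Gm42613* and *Gm42615*, 0.847 for *Gm43605* and *Gm42615*, 0.807 for *Gm42615* and *Gm42614*, 0.695 for *Gm42613* and *Gm42614*, and 0.617 for *Gm43605* and *Gm42614*. The lowest of these joins the 2 genes farthest apart along *Ppargc1a*. With *Ppargc1a* itself r was 0.442 to 0.532. The sum of the 4 was 17.1 ± 7.79 CPM in WT and 18.4 ± 6.09 in mD3AKO exercised mice, from 10.4 to 33.5 over both.

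The relation of the summed nested genes to *Ppargc1a* within exercised mice does not follow from how the genes were chosen and was tested by permutation (two-sided, 6 relations in the family). Pearson's r was 0.52 (n = 13, permutation p = 0.0718, adjusted 0.431) and Spearman's rho 0.50 (permutation p = 0.0855, adjusted 0.513). Without mice 25 and 17, the 2 farthest from the median of *Ppargc1a*, r was 0.225. With single mice left out it ran from 0.34 without mouse 25 to 0.65 without mouse 3 (rho 0.71, permutation p = 0.0134, adjusted 0.0806), and without mouse 17 alone it was 0.50. Within sex r was 0.663 in the 6 males and 0.604 in the 7 females, and with the WT and mD3AKO means subtracted it was 0.56. The adjusted p was above 0.05 in each of these. Mouse 25 had the most of both, 113 CPM of *Ppargc1a* and 33.5 of the nested genes, and mouse 17, with 111 CPM of *Ppargc1a*, had 20.7 CPM of the nested genes, close to the 19.7 of mouse 3, which had the least *Ppargc1a* (54.2 CPM).

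**Figure D4:**
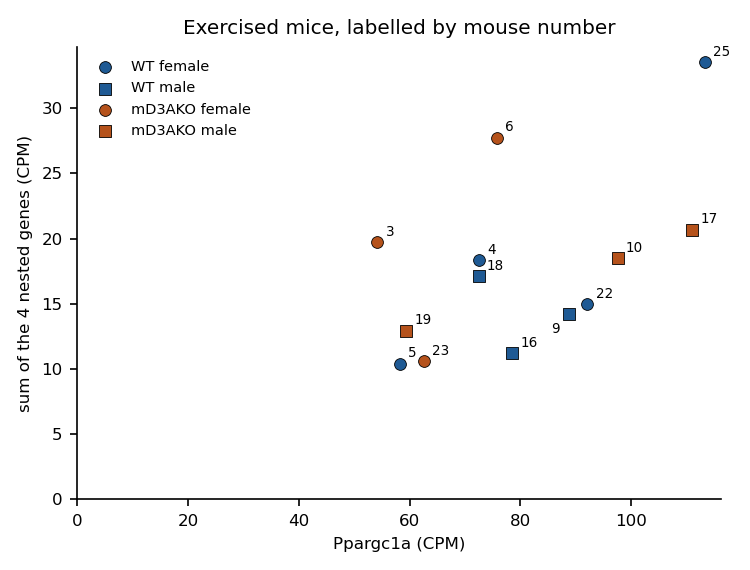
Summed CPM of the 4 nested genes against CPM of *Ppargc1a* in the 13 exercised mice, each marked by its number and by genotype. Mouse 25 stands at the upper right (113 and 33.5 CPM), and mice 3 and 17, at 54.2 and 111 CPM of *Ppargc1a*, have nearly the same sum, 19.7 and 20.7 CPM.

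The same kind of gene elsewhere is set beside the nested genes as a description with no test, since the 4 in *Ppargc1a* were chosen on their exercise values and the others were not. Of 581 tested single-exon genes nested in a tested host without sharing exonic bases, 54 lay in a host called higher after exercise, 50 of them in 32 hosts other than *Ppargc1a*. These 50 had a median log2 fold change of 0.43 and a median difference from their host of 0.05. Of them 16 were called higher themselves, where 5.7% of all genes were called higher. The largest change among them was 1.77, and *Gm38034* in *Foxo1*, named after its values were seen, was at 1.54. None of these 50 was above its host by more than 1.30, where the 4 in *Ppargc1a* were above it by 3.52 to 4.25. Only 3 of the 50 were on the strand opposite to their host. Counts summed over all 25 libraries were also set per kb of nested gene, in hosts with over 20000 such counts. Nested genes annotated as TEC (a class of unresolved transcripts), as the 4 are, had a median of 92.7 summed counts per kb on the strand of the host (413 genes, quartiles 56.2 to 172). On the opposite strand the median was 112 (48 genes, 54.6 to 205), the 4 of *Ppargc1a* left out. Nested processed pseudogenes had 103.1 (147 genes) and 102.7 (287 genes). In both classes the quartile ranges on the same and the opposite strand overlapped. Whether the counting used the strand, on which the reading of *Gm42613* depends, was not tested.

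**Figure D5:**
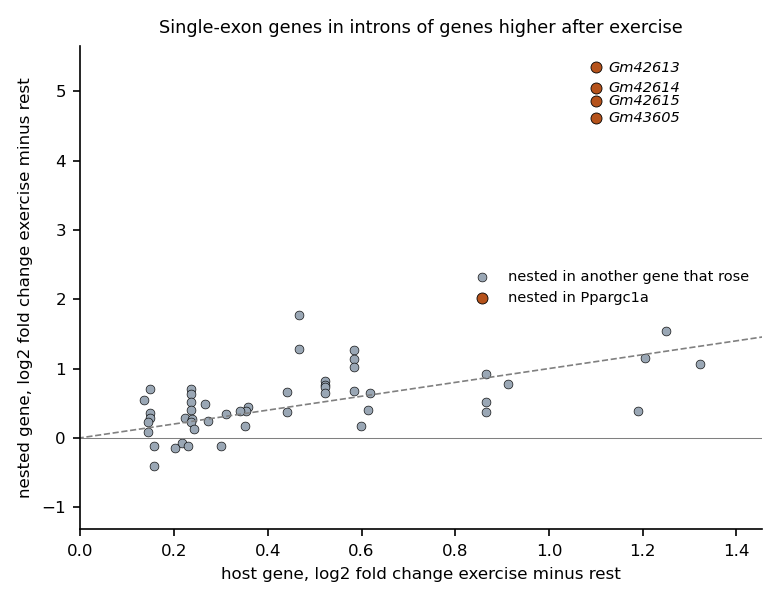
Log2 fold change for exercise of 54 single-exon genes nested in a host called higher after exercise, against that of the host, with a dashed line of equality. The 4 genes in *Ppargc1a* lie at 4.62 to 5.35 over a host at 1.10, and the other 50 lie at 1.77 or lower.

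The other coactivators changed little. *Pprc1*, which encodes the PGC-1-related coactivator, was at 8.09, 8.76, 8.92, 9.97 and 10.6 CPM in WT rested mice 14, 20, 1, 13 and 11 and at 8.30, 9.56 and 11.0 (lowest, median, highest) in mD3AKO rested mice. After exercise it was at 9.31, 10.4 and 12.4 in WT and 10.3, 11.2 and 17.4 in mD3AKO mice, with mouse 19 highest. All 13 exercised mice were above the median of the rested mice and 7 were above every rested mouse, and the log2 fold change was 0.27 (SE 0.08; 0.20 without mouse 19). *Ppargc1b*, for PGC-1β, on chromosome 18, pointed the other way. It was at 18.1, 18.8, 20.0, 20.1 and 21.3 CPM in WT rested mice 1, 13, 11, 14 and 20 and at 16.2, 18.2 and 23.6 in mD3AKO rested mice (highest 21.4 without mouse 15), and after exercise at 14.4, 16.7 and 20.5 in WT and 13.9, 16.4 and 19.4 in mD3AKO mice. Of the exercised mice 5 were below every rested mouse, and the log2 fold change was -0.21 (SE 0.07). The groups overlapped for both genes.

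*Perm1* had the highest level per length of the 10 genes and *Pprc1* the lowest outside the nested genes. Per kilobase of exon, resting means (n = 12) were 146 ± 21.0 CPM per kb for *Perm1*, 48.8 ± 8.98 for *Esrra*, 12.3 ± 1.5 for *Esrrg*, 5.72 ± 1.04 for *Ppargc1a*, 4.85 ± 0.518 for *Ppargc1b* and 1.26 ± 0.135 for *Pprc1*. In this order *Ppargc1a* (4.67 to 8.82) and *Ppargc1b* (4.06 to 5.91) overlapped and the other neighbors did not. Mouse 15 set the top of both ranges: without it *Ppargc1a* was at 5.44 ± 0.368 CPM per kb (4.67 to 5.89, n = 11) and *Ppargc1b* at 4.06 to 5.35, still overlapping. After exercise (n = 13) *Ppargc1a* was at 12.1 ± 2.97 and *Esrrg* at 13.5 ± 2.30 CPM per kb, with overlapping ranges, while *Ppargc1b* was at 4.22 ± 0.529, below every value of *Ppargc1a*. The order of the other genes was the same.

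*Perm1* (chr4:156215868-156221307) was at 463, 572, 584, 627 and 664 CPM in WT rested mice 20, 11, 13, 14 and 1 and at 473 to 718 (median 565; highest 616 without mouse 15) in mD3AKO rested mice, against 568 to 709 (median 634) and 536 to 745 (median 611) after exercise; the log2 fold change was 0.14 (SE 0.07). *Esrra* (chr19:6910977-6921813) was at 90.1, 125, 130, 136 and 142 CPM in WT rested mice 20, 1, 14, 11 and 13, at 90.2 to 152 (median 116; highest 150 without mouse 15) in mD3AKO rested mice, and at 107 to 163 (median 131) and 110 to 153 (median 123) in the exercised groups, a log2 fold change of 0.06 (SE 0.09). *Esrrg* (chr1:187608791-188214885) was at 64.3, 67.9, 82.4, 83.0 and 84.9 CPM in WT rested mice 11, 14, 20, 13 and 1, at 65.9 to 93.4 (median 74.2; highest 84.0 without mouse 15) in mD3AKO rested mice, and at 65.4 to 101 (median 76.6) and 69.1 to 107 (median 94.6) in the exercised groups, a log2 fold change of 0.15 (SE 0.08). Rested and exercised mice overlapped for all 3, and without mouse 15 the exercised mice above every rested one were 3 of 13 for *Perm1* instead of 1 and 6 for *Esrrg* instead of 4. Some exonic bases are shared with genes on the other strand: 73 of *Esrra* with *Trmt112* and 177 of *Pprc1* (chr19:46044886-46072915) with *Ldb1*. Neither neighbor was called for exercise (log2 fold change 0.17, adjusted p = 0.168, and -0.06, adjusted p = 0.583, edgeR).

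For genotype, none of the 10 genes was called by edgeR or DESeq2 and none had an unadjusted p under 0.05 in edgeR, where 0.269% of all genes were called (44 of 16340, 0.226% higher and 0.0428% lower in mD3AKO; 1018 had an unadjusted p under 0.05). The log2 fold change of mD3AKO over WT was 0.06 for *Ppargc1a* (95% interval -0.17 to 0.30), 0.11 for *Pprc1* (-0.05 to 0.27), -0.06 for *Ppargc1b* (-0.20 to 0.08), -0.05 for *Perm1* (-0.20 to 0.09), -0.03 for *Esrra* (-0.22 to 0.16) and 0.08 for *Esrrg* (-0.09 to 0.25). The intervals of these 6 thus left out log2 differences beyond -0.22 and 0.30. Those of the nested genes were wide: 0.01 for *Gm42613* (-0.84 to 0.85), -0.22 for *Gm42614* (-0.88 to 0.43), 0.30 for *Gm42615* (-0.26 to 0.86) and -0.04 for *Gm43605* (-0.69 to 0.61). The lowest edgeR adjusted p was 0.94, for *Pprc1*.

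For the interaction 0 of the 10 genes and 0.0% of all genes were called by edgeR (0 of 16340, with 403 at an unadjusted p under 0.05; DESeq2 also called 0, with 386). *Ppargc1a* had a log2 fold change for exercise of 1.27 (SE 0.17) in WT and 0.94 (SE 0.16) in mD3AKO mice, a difference of -0.33 (95% interval -0.80 to 0.14, adjusted p = 1.00), and with single mice left out the difference ran from -0.46 without mD3AKO exercised mouse 17 to -0.21 without mouse 15. *Gm42614* had the largest difference, 0.83 (-0.51 to 2.17), and *Gm42615* pointed the other way, -0.48 (-1.6 to 0.64). With single mice left out, that of *Gm42614* ran from 0.55 without WT rested mouse 11 to 1.38 without mD3AKO rested mouse 8. That of *Gm42615* ran from -0.76 without WT rested mouse 11 to -0.22 without mouse 15. The intervals leave room for differences of over 2-fold in the nested genes.

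*Esrra* was higher in males. It was the 1 gene of the 10 called for sex, where 8.65% of all genes were called (5.04% higher in males and 3.6% lower). Males had 116 to 163 CPM (140 ± 13.5, n = 13) and females 90.1 to 131 (112 ± 14.5, n = 12), so 10 males were above every female and 6 females below every male. At rest the means were 139 ± 12.6 and 103 ± 16.2 CPM, and after exercise 142 ± 15.5 and 119 ± 9.65 CPM. The log2 fold change of males over females was 0.33 (SE 0.07, 95% interval 0.20 to 0.47, edgeR adjusted p = 0.00274), and 0.28 with WT rested mouse 20, the female with the least *Esrra*, left out. The slow-fiber markers moved with sex too: 6 of 6 were lower in males, and they summed to 23210 to 30180 CPM in males and 28520 to 46170 in females. Markers of all fibers went the other way, with 2 of 4 called higher in males (*Ckm* by 0.30 and *Mb* by 0.26 on the log2 scale) and a median of 0.20. Of other cell types, 1 of 2 tested brown adipocyte markers was called higher in males (*Cidea*, by 0.48, edgeR adjusted p = 0.0364; list median 0.21) and 1 of 4 satellite cell markers lower (*Pax7*, log2 fold change -0.31, adjusted p = 0.0212; list median -0.08). The 3 Schwann cell markers were not called but all had an unadjusted p under 0.05 (edgeR, list median -0.81), as did 2 of the 3 blood markers, also not called (list median 0.56, summed level 99.95 to 379.9 CPM in males and 59.84 to 229.8 in females). The part of these lists in the difference in *Esrra* and in the targets below was not tested.

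Of 32 metabolic and mitochondrial targets of PGC-1 and ERR 12 were called higher in males and 0 lower, with a median log2 fold change of 0.16 against -0.02 over all genes and 0.20 for the markers of all fibers, with which they share *Mb*. Examples, chosen after their values were seen, are *Ckmt2*, the mitochondrial creatine kinase of striated muscle, at 2771 ± 295 CPM in males and 2067 ± 199 in females (log2 fold change 0.43, adjusted p = 0.000273), and *Sirt3*, a mitochondrial deacetylase, at 23.0 ± 1.84 and 18.2 ± 1.78 CPM (0.35, adjusted p = 7.92e-05; edgeR). The count rested in part on 1 library: without WT rested mouse 20 it was 5, while genes called for sex overall went from 1413 to 865. *Ppargc1a* itself had a log2 fold change for sex of 0.18 (SE 0.11, adjusted p = 0.354). None of the 10 genes was called for the difference between the sexes in the response to exercise, where 0.0551% of all genes were called (9 genes). The lowest unadjusted p was 0.0942, for *Gm42615*, whose log2 fold change was 5.47 in females and 4.44 in males, a difference of -1.03 (-2.24 to 0.19). With single mice left out this difference ran from -1.73 without WT rested mouse 20 to -0.70 without WT rested mouse 1.

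The nuclear receptors, coregulators and targets around PGC-1 were followed through 5 lists of 128 genes in all. Over all genes 10.4% were called for exercise, 5.7% higher and 4.69% lower. Of the upstream regulators of *Ppargc1a* 3 of 38 tested rose and 1 fell. *Foxo1*, a forkhead factor of fasting and atrophy, rose from 14.5 ± 1.46 to 34.3 ± 8.51 CPM (log2 fold change 1.25, SE 0.11, adjusted p = 3.13e-09). *Crem*, a cAMP-responsive factor, rose by 0.39 on the log2 scale (adjusted p = 0.000469), and *Prkab1*, a subunit of AMP-activated kinase, fell by 0.27 (adjusted p = 0.00266, all edgeR). The list's median was 0.00, as over all genes.

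Among partner nuclear receptors 1 of 12 tested rose and 1 fell. *Ppara*, the fatty acid sensor PPARα, rose from 33.6 ± 4.89 to 71.2 ± 11.1 CPM, from a highest resting value of 42.9 to a lowest exercised value of 49.7 (log2 fold change 1.09, SE 0.09, edgeR adjusted p = 1.61e-09), a fold close to that of *Ppargc1a*. *Thra*, a thyroid hormone receptor, fell by 0.15 (adjusted p = 0.0174). It lost this call without WT rested mouse 20, in females only and in males only, where 0 partner receptors were called lower. Of 23 coregulators 2 rose: *Nrip1*, a corepressor of PGC-1 targets, by 0.63 (37.8 ± 4.03 to 57.9 ± 9.64 CPM, adjusted p = 1.45e-06), and *Ncoa3*, a steroid receptor coactivator, by 0.28 (adjusted p = 0.00143). Downstream, 0 of 20 mitochondrial biogenesis factors were called by edgeR (0 at an unadjusted p under 0.05; 0 to 1 with a mouse left out), and 1 of 32 targets, *Vegfa*, the endothelial growth factor, which rose from 134 ± 13.0 to 155 ± 13.8 CPM (0.21, adjusted p = 0.0137). For genotype and interaction 0 genes of the 5 lists were called by edgeR, with 0 to 4 of each list at an unadjusted p under 0.05 for genotype.

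Markers of other cells moved with exercise as well. Of 5 endothelial markers 4 fell (*Kdr* by 0.58, *Tek* by 0.35, *Emcn* by 0.27 and *Cdh5* by 0.23 on the log2 scale), their sum being 323 to 443 CPM at rest and 277 to 362 after exercise, and 2 of 4 satellite cell markers fell (*Pax7* by 0.45 and *Myf5* by 0.46), with sums of 31.3 to 38.1 and 26.6 to 32.9 CPM. None of the markers in these 2 lists was at 0. Of the brown adipocyte markers *Dio2* fell by 0.44 (edgeR adjusted p = 0.0378), *Cidea* had a log2 fold change of -0.21, and *Ucp1*, not tested, was at 0 in every rested mouse, every female and every mD3AKO mouse, so it had counts in WT exercised males alone. Of 4 fibroblast markers 0 were called (edgeR, 1 at an unadjusted p under 0.05, *Pdgfra*, adjusted p = 0.0549), with a list median of -0.38, and they summed to 810 to 4194 CPM at rest and 858 to 1983 after exercise. In bulk muscle, fewer cells of a type and less RNA per cell cannot be told apart, and the part of these markers in the values of the 10 genes was not tested. Markers of slow fibers and of all fibers were not called for exercise (0 of 6 and 0 of 4).

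The genes whose level followed *Ppargc1a* most closely over all 25 libraries were *Impact*, *Irs2*, *Lpin1*, *Ppara*, *BB123696*, *Nrip1*, *Slc20a1*, *Nfe2l2*, *Tmcc1* and *Hk2*, the 10 of 12679 compared with the highest Pearson's r of log2 CPM outside the 10 genes described here. Their r was 0.90 to 0.93. All 10 were higher after exercise. As they were picked for following *Ppargc1a* over rested and exercised libraries together, this comes from the choice and is given with no test. Their log2 fold changes ran from 0.52 for *Hk2*, a hexokinase (464 ± 48.6 to 671 ± 72.6 CPM), to 3.39 for *BB123696*. *Irs2*, an adaptor of the insulin receptor, went from 30.7 ± 6.88 to 215 ± 73.7 CPM. With group means subtracted, so that exercise no longer sets the relation, r ran from 0.41 for *Slc20a1*, a phosphate transporter, to 0.73 for *Lpin1*, a phosphatidate phosphatase; as these genes were picked for a high r in the same libraries, this is no separate support. Without mouse 15, an alternative added after seeing the data, r of the same 10 genes was 0.91 to 0.96, and 0.50 to 0.76 with group means subtracted. Of the 10 genes described here the nested genes had r of 0.853 to 0.911 with *Ppargc1a* over all libraries (0.909 to 0.922 without mouse 15), *Perm1* 0.505, *Pprc1* 0.454, *Esrrg* 0.323, *Esrra* 0.281 and *Ppargc1b* -0.461. Subtracting group means gave r of 0.150 to 0.472 for the nested genes. It gave 0.364 for *Perm1*, -0.0573 for *Pprc1*, 0.187 for *Esrrg*, 0.308 for *Esrra* and 0.0344 for *Ppargc1b*. Without mouse 15 as well, these were 0.306 to 0.400, 0.188, -0.164, 0.0438, 0.199 and -0.191 in that order. These values are descriptions over rested and exercised libraries of unequal depth.

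Within exercised mice the relation of the other genes to *Ppargc1a* did not pass the test. Pearson's r over 13 mice was -0.20 for *Ppargc1b*, -0.28 for *Pprc1*, 0.16 for *Perm1*, 0.20 for *Esrra* and -0.03 for *Esrrg*, and Spearman's rho was -0.132, -0.0604, 0.0275, 0.192 and -0.0220, with permutation p adjusted over 6 relations from 0.723 to 0.911 for r and of 0.949 for rho. Without mice 25 and 17, r was 0.270, -0.190, 0.0791, 0.362 and -0.113 in the same order. In the 12 rested mice *Perm1* had the highest r, 0.58 (permutation p = 0.028, adjusted 0.168; rho 0.413, permutation p = 0.184, adjusted 0.354), which was 0.271 without mouse 15 and -0.0843 without mice 15 and 20.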

How the data were processed

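RNA-seq was made from the *soleus* of 25 mice (stranded TruSeq kit on total RNA depleted of ribosomal RNA, 75-bp paired ends). The authors aligned reads to mm10 and deposited raw counts per gene of GENCODE M15, with no normalization; the submitters' processing notes name FastQC 0.11.5, STAR 2.5.3a and featureCounts 1.5.3. Symbols came from GENCODE M21 (52403 of 52636 genes matched). Groups came from the sample labels. The members and gene lists were chosen with earlier results of these data known.

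Genes were kept by filterByExpr over the 4 groups (minimum count 10, total 15), scaled by TMM and tested with edgeR 4.0.16 (R 4.3.3, limma 3.58.1) by quasi-likelihood F tests with Benjamini-Hochberg adjustment, called at an adjusted p (FDR) under 0.05. One fit of 4 groups gave genotype, exercise and interaction, and one that also split the groups by sex gave sex and sex by exercise. SEs are the log2 fold change over the square root of F. The fits were tested on simulated data. Correlations used log2 CPM (prior count 2) with 100000 permutations, or all of them below 10 mice. Named genes are all 10 members, up to 3 called genes per direction and list, *Dnmt3a* and the 10 genes most like *Ppargc1a*. Alternatives were RLE scaling, DESeq2 1.42.0 on the same genes, no filter, sex as a term, 1 sex only, and leaving out each mouse. Some genes that the naming rule picked are not reported here.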

Additional observations from a re-analysis of the deposited data

Results flagged for a closer look

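Values of a single mouse far from the rest of its group were looked for in 48 sets of mice, of which chance gives about 1 in 20. *Ppargc1a* in mD3AKO rested mouse 15 was at 58.12 CPM, where the next mouse had 38.86, from 831 counts in the library with the most ribosomal RNA. *Gm42615* was at 0.6294 CPM in the same mouse, from 9 counts, with the next at 0.2904. WT exercised mouse 25 stood above its group in 3 of the 4 nested genes and in their sum: *Gm42613* at 5.556 CPM (next 3.134), *Gm42615* at 8.979 (next 5.136), *Gm43605* at 13.15 (next 6.317) and the sum at 33.54 (next 18.35). These 4 values share 1 library and are not independent. *Pprc1* in mD3AKO exercised mouse 19 was at 17.44 CPM, with the next at 11.89.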

How the results depend on the processing

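No paired analysis was possible because each mouse number belongs to 1 mouse, so that no replicate numbers are shared between groups. The 4 nested genes and *Ppargc1a* kept the direction of their exercise values with each mouse left out (log2 fold changes 4.44 to 5.50 and 1.03 to 1.16). Depth limits the nested genes at rest, where 0 to 14 counts per library leave wide intervals. Genes called for genotype numbered 44, and 81 with DESeq2, 72 with sex as a term, 6 in females only and 23 in males only. Genes called for exercise numbered 1699, and 512 and 966 in females and males only. Those called for sex by exercise numbered 9, and 23 with no filter. With mice left out, genes called for sex ranged from 865 (without WT rested mouse 20) to 1769, and for sex by exercise from 2 to 17 (3 to 5 without mD3AKO exercised mouse 3 or WT rested mouse 1 or 14, 2 without mD3AKO exercised mouse 6, 17 without mD3AKO exercised mouse 23). The cause was not tested beyond the smaller number of mice.

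The exercise counts of the 5 pathway lists were put through these alternatives after seeing the data. So were the counts of targets called higher in males and of slow-fiber markers called lower in males. The other counts given for the pathway and marker lists were not put through them. In females only and males only, 0 and 0 partner receptors, 0 and 0 upstream regulators were called lower, 1 and 1 coregulators and 0 and 0 targets higher, and 1 upstream regulator was higher in females only. Upstream regulators called lower were 2 with DESeq2 and 2 with sex as a term. With mice left out, partner receptors called higher ranged from 1 to 2 (2 without mD3AKO rested mouse 21) and lower from 0 (without WT rested mouse 20) to 1, upstream regulators lower from 1 to 2 (2 without mD3AKO exercised mouse 19, mD3AKO rested mouse 15 or WT exercised mouse 5), mitochondrial biogenesis factors higher from 0 to 1 (1 without WT rested mouse 1) and targets higher in males from 5 (without WT rested mouse 20) to 18.

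None of the sign changes that follow is of a called value. In females only, genotype was -0.10 for *Ppargc1a*, 0.10 for *Gm42614* and 0.071 for *Gm43605* (log2), and the interaction was -0.56 for *Gm42613*, -0.24 for *Gm43605*, 0.079 for *Ppargc1b*, -0.20 for *Pprc1* and 0.10 for *Esrra*. In males only, genotype was -0.028 for *Gm42613* and the interaction -0.043 for *Perm1*. Sex was 0.0020 for *Ppargc1b* with RLE and 0.0040 with no filter. In females only, r with *Ppargc1a* was 0.13 for *Ppargc1b*, 0.048 for *Pprc1*, -0.39 for *Perm1*, -0.47 for *Esrra* and 0.056 for *Esrrg*, and with group means subtracted 0.036 for *Esrrg*. With mice left out, genotype ranged from -0.0048 to 0.11 for *Ppargc1a*, -0.16 to 0.17 for *Gm42613*, -0.14 to 0.15 for *Gm43605* and -0.075 to 0.0067 for *Esrra*. The interaction ranged from -0.27 to 0.39 for *Gm42613*, -0.082 to 0.037 for *Ppargc1b*, -0.0027 to 0.18 for *Pprc1*, -0.044 to 0.096 for *Perm1* and -0.099 to 0.062 for *Esrra*. Sex ranged from -0.17 to 0.98 for *Gm42613*, -0.32 to 0.28 for *Gm42614*, -0.035 to 0.022 for *Ppargc1b* and -0.068 to 0.036 for *Pprc1*. Sex by exercise ranged from -0.044 to 0.16 for *Ppargc1a*, -1.19 to 0.030 for *Gm42614*, -0.25 to 0.26 for *Gm43605*, -0.068 to 0.14 for *Pprc1* and -0.21 to 0.046 for *Perm1*. The r with *Ppargc1a* ranged from -0.36 to 0.011 for *Pprc1*, -0.11 to 0.36 for *Perm1*, -0.21 to 0.065 for *Esrrg*, 0.023 (without mouse 17) to 0.50 (without mouse 25) for *Esrra* and -0.37 (without mouse 3) to -0.0044 (without mouse 17) for *Ppargc1b*.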

Other observations

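*Esrrg* holds in its introns a further annotated gene whose counts followed exercise. *9330162B11Rik* (chr1:188006576-188008990, mm10, 3 exon blocks, 2212 bases, annotated as antisense) lies on the strand opposite to *Esrrg*, in the 24.3-kb intron between blocks 5 and 6, and shares no exonic base with it. If the counting did not use the strand, its reads and those from unspliced *Esrrg* RNA cannot be told apart. The gene was chosen after its values were seen. It had 2 to 18 counts per library at rest and 21 to 113 after exercise, which is 0.266 ± 0.119 CPM (SD, n = 12) and 2.05 ± 0.888 CPM (n = 13), and 12 of 13 exercised mice were above every rested mouse. The log2 fold change was 2.96 (SE 0.27), given as a description with no test because the gene was chosen on these values. That of *Esrrg* was 0.15, and those of *Gm38315* and *Gm36388*, also inside *Esrrg*, were 0.02 and 0.12.

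By sex, where 8.65% of all genes were called (5.04% higher in males and 3.6% lower), 2 of 38 tested upstream regulators of *Ppargc1a* were called higher in males and 1 lower, of 23 coregulators 1 higher (*Hdac3*, 0.12, edgeR adjusted p = 0.0403), of 12 tested partner receptors 1 lower (*Nr3c1*, -0.20, adjusted p = 0.037) and of 20 mitochondrial biogenesis factors 1 higher. The higher regulators were *Camk2b* (0.20, adjusted p = 0.00218) and *Prkag3* (0.40, adjusted p = 0.0408, edgeR). *Hdac9*, a class IIa histone deacetylase, was the regulator called lower in males (19.3 ± 1.79 against 25.8 ± 2.47 CPM, log2 fold change -0.42, edgeR adjusted p = 2.55e-05), and *Lrpprc*, a mitochondrial RNA-binding partner of PGC-1, was higher (213 ± 16.0 against 188 ± 12.8 CPM, 0.18, adjusted p = 0.0183). All 6 genes called in these lists are named; the shares called lie near that over all genes and say nothing of the lists.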
